A study of Gallus gallus with 24 samples.

Results

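The genes described here are the immune signalling and leukocyte surface genes of chicken abdominal fat: interleukins, chemokines, tumor necrosis factor (TNF) family members, interferons, colony stimulating factor (CSF) receptors, the receptors of these ligands, Toll-like receptors (TLR), interferon regulatory factors (IRF) and surface proteins with a cluster of differentiation (CD) number. They were chosen by name only, as every gene identifier of the deposited table that starts with IL, CCR, TLR, IRF, CSF or CD followed by a digit, or with CCL, CXC, TNF, TNR or IFN, and this gave 89 of 17934 features. The abdominal fat came from cockerels at 7 wk of age of a fat line (FL) and a lean line (LL), which had been selected in opposite directions on abdominal fat weight and were raised under a standard broiler protocol. Each line had 4 birds with 1 library per bird, and the counts of the 3 sequencing runs of a library were summed, with the bird as the unit of replication. No treatment was given. Each line is a single selected population measured in whole tissue, so effects of the selection cannot be told apart from other differences between these populations.

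Cytokines are secreted proteins that pass signals between cells, and most of them bind receptors that pair a ligand-binding chain with a shared signalling chain. Chemokines guide migrating leukocytes through G protein-coupled receptors, Toll-like receptors recognise microbial molecules, and IRF proteins are the transcription factors that act downstream of many of these receptors. Adipose tissue holds resident macrophages, T cells and other leukocytes beside adipocytes and endothelium, and in mammals its immune signals are known to change with obesity.

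The bird totals ranged from 4299772 to 10878211 counts in the FL and from 5548867 to 12876999 counts in the LL, and levels are given as CPM (counts per 1000000 counts, scaled by TMM), which compare birds and not genes, since they are not divided by gene length. The adipocyte markers (5 of 6 genes found) summed to 10586 to 14771 CPM per bird. The summed level of skeletal muscle markers was 11957 CPM in FL replicate 4 against 70.3 to 115 CPM in the other birds, and that of liver markers was 100.3 and 235 CPM in LL replicates 2 and 3 against 1.2 to 5.55 CPM in the other birds. Whether these markers came from other tissue was not tested. The counts of members, and each fold change that moved by over 1.5 times, are also given without these 3 birds, here or in the account of the processing.

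Most of the immune ligands that the rule found were at or near the limit of detection. Most of the receptors and surface genes that it found had enough reads to be tested. Of the 89 features, 57 passed the filter on low counts (64% against 62.4% of all features), 14 had over 3 counts in at least 1 bird but did not pass, and 18 had at most 3 counts in every bird (20.2% against 24.5% of all features). A count of 3, the most that a count of 0 allows, is 0.233 to 0.698 CPM in these birds and covers counting error only. Of the 9 interleukin ligands, 7 had at most 3 counts in every bird, among them IL6 and IL10, a classic inflammatory and a classic anti-inflammatory cytokine, and IL17F, IL19, IL22 and IL26 had a count of 0 in all birds. IL6 had 0 to 2 counts per bird, and its feature overlaps another, so its counts are uncertain. The interferon genes IFNA1, IFNA3 and IFNB, whose products are the type I interferons of antiviral defence, also had a count of 0 in all birds. Their features on chromosome Z overlap a further feature, and reads with several mapping positions were excluded by the authors, so the counts of these 3 genes are uncertain.

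**Figure D1:**
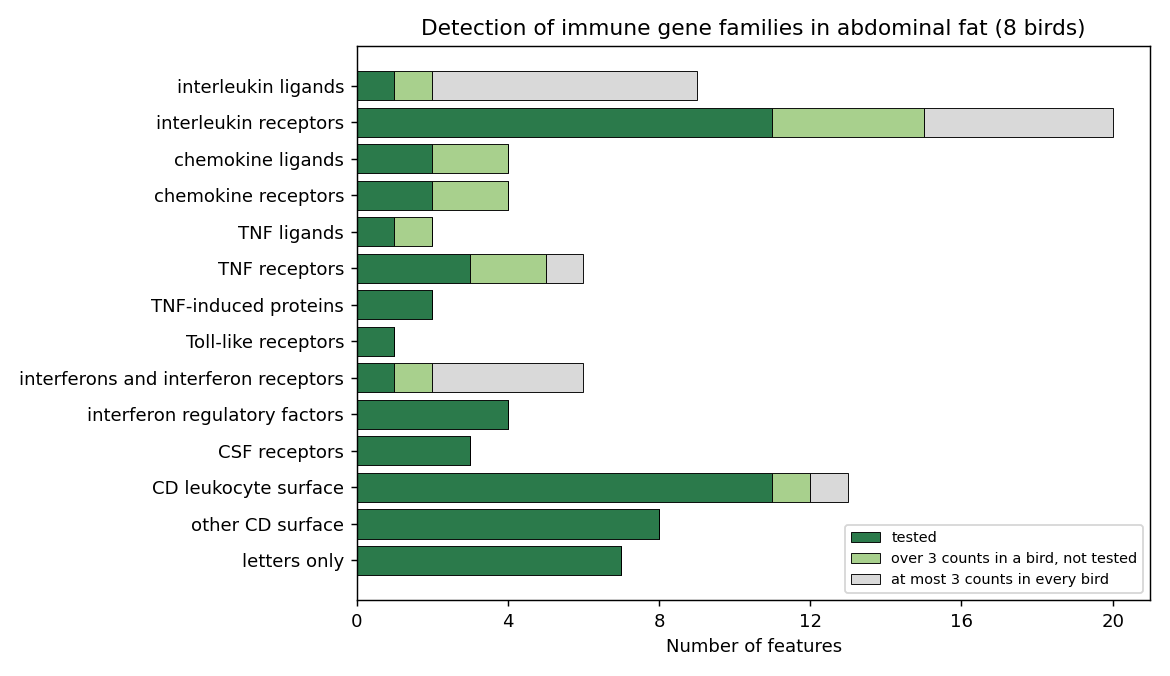
Number of features of each family (horizontal axis) that were tested, had over 3 counts in a bird but were not tested, or had at most 3 counts in every bird. In the interleukin ligands 1 of 9 features was tested and in the interferons and their receptors 1 of 6, against 11 of 20 interleukin receptors, 11 of 13 CD leukocyte surface genes and 8 of 8 other CD surface genes.

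No member was called different between the lines by edgeR after adjustment over all genes. In the quasi-likelihood test of edgeR, 0 of 57 tested members had an adjusted p at or under 0.05 with a fold change of at least 1.2, against a background of 0.366% (41 of 11187 genes), and the lowest adjusted p of a member was 0.164. An unadjusted p under 0.05 was held by 10 members (17.5%, of which 4 had their higher mean in the FL and 6 in the LL) against 13.1% of all genes tested (6.49% and 6.62%). In 5 members (8.77%) the lines did not overlap, against 8.1% of all genes. The 4 LL birds were on top in IL13RA1, CD2, ALCAM and TNFRSF21 (background 4.34%) and the 4 FL birds in IL1RAPL2 (background 3.76%). The Wald test of DESeq2 called 1 member, IL1RAPL2 (1.75% of members against 2.85% of all genes). The median log2 fold change (FL over LL) of the members was -0.028 against 0.00212 over all genes, with 22 positive and 35 negative values, and the median was 0.029 without LL replicate 4. Without the 3 birds high in muscle or liver markers, 0 of 58 members and 0 of 11298 genes were called, 8 members (13.8%) had an unadjusted p under 0.05 against 13.5% of all genes, and the median was -0.097. Abdominal fat is a mixed tissue, so fewer cells of a type and less RNA per cell cannot be told apart in any of these values.

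**Figure D2:**
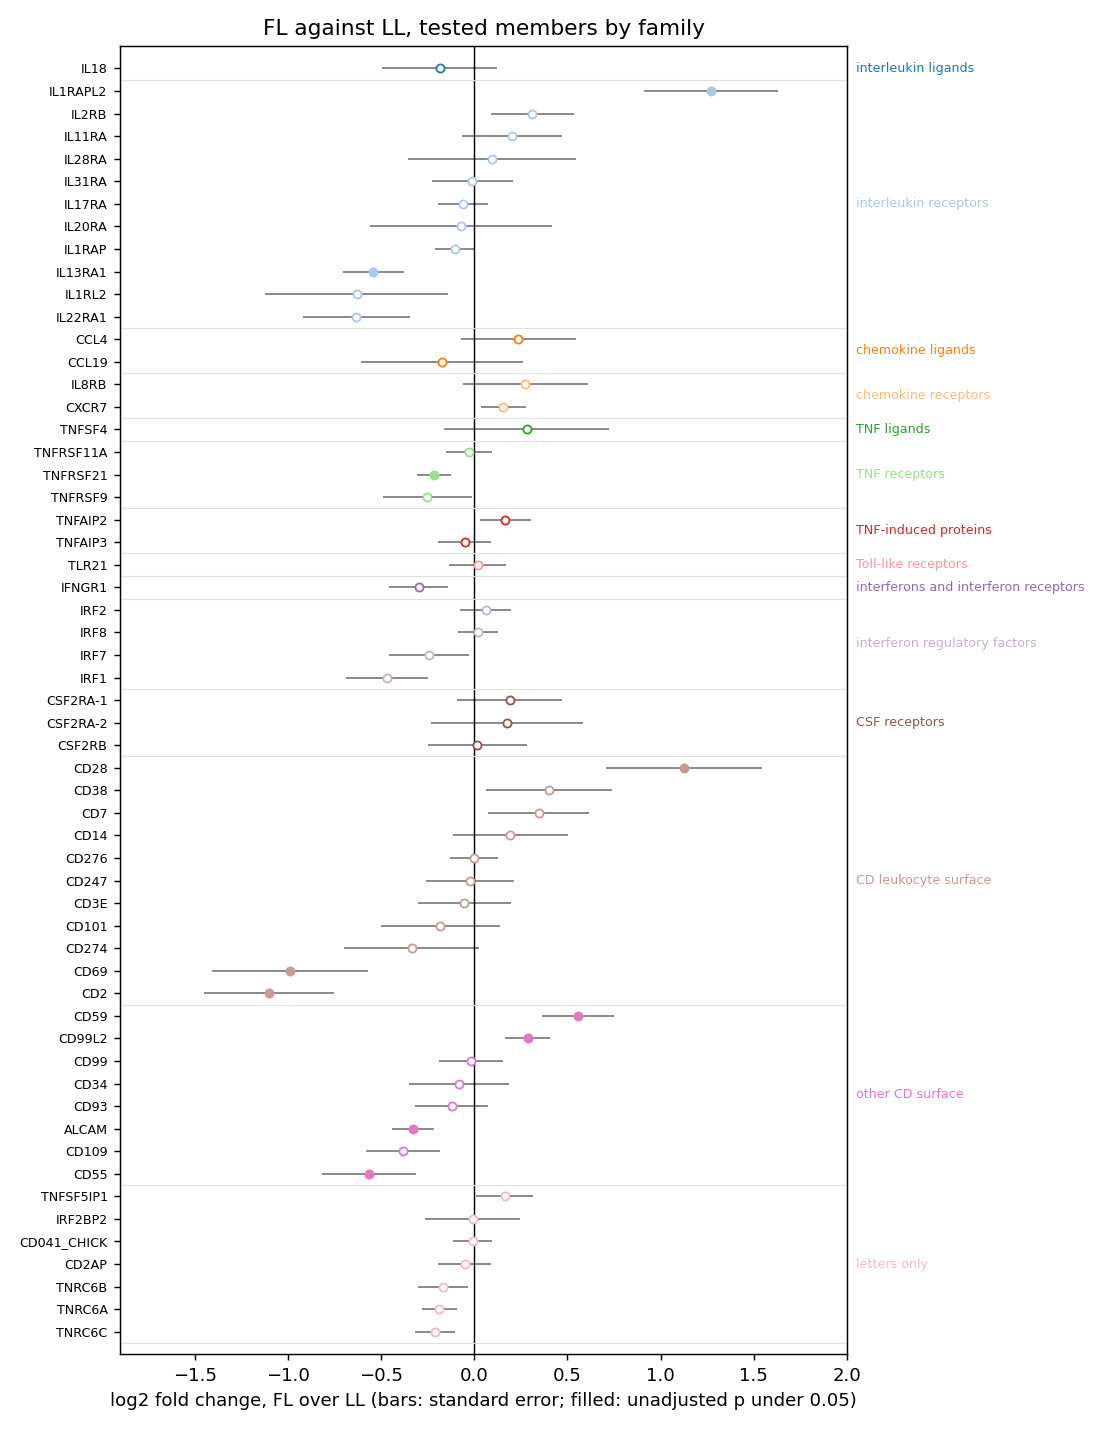
Log2 fold change of each tested member, FL over LL (horizontal axis), grouped by family, with its standard error as a bar and filled points for an unadjusted p under 0.05. The values run from -1.10 (CD2) to 1.27 (IL1RAPL2), and the points lie on both sides of 0 in the interleukin receptors, the interferon regulatory factors and both groups of CD genes.

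Among the ligands that the rule found, only IL18, CCL4, CCL19 and TNFSF4 had enough reads to be tested. Ligands outside the rule that were looked up by name were tested as well and are given below. They were TNFSF10 (50.4 to 83.3 CPM), CXCL12 (27.7 to 54.0 CPM) and IL1B (0.552 to 5.29 CPM). IL18 (chr24:6291783-6295450, build 2.1 as for all positions here) encodes a cytokine that drives interferon gamma production, and its level was 5.23, 4.80, 6.65 and 3.14 CPM in FL replicates 1 to 4 and 4.70, 4.07, 4.82 and 8.84 CPM in LL replicates 1 to 4. The lines overlapped, and LL replicate 4 stood above the other LL birds (log2 fold change -0.19, SE 0.31, edgeR adjusted p = 0.856). CCL4 (chr19:366195-380985), a chemokine that attracts monocytes and lymphocytes in mammals, had 10.4, 8.92, 15.1 and 9.33 CPM in the FL and 7.55, 7.44, 6.16 and 16.2 CPM in the LL. Here 3 LL birds lay below every FL bird and LL replicate 4 lay above them all (log2 fold change 0.24, SE 0.31, edgeR adjusted p = 0.805, and -0.04 on the log2 scale without the 3 birds high in muscle or liver markers). The CCL4 feature overlaps another, so reads may be shared. CCL19, a chemokine of lymphoid tissue, ranged from 1.14 to 3.93 CPM in the FL and from 1.5 to 5.39 CPM in the LL, again highest in LL replicate 4. TNFSF4, the ligand known as OX40L, had 4.69, 7.32, 3.80 and 4.56 CPM in the FL and 1.00, 3.54, 6.88 and 4.56 CPM in the LL (log2 fold change 0.28, SE 0.44, edgeR adjusted p = 0.846). Its lowest bird was LL replicate 1, and the log2 fold change was -0.03 without that bird and 0.87 without the 3 birds high in muscle or liver markers.

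The untested ligands that the rule found included 2 chemokines and 1 interleukin with over 10 counts in some bird. IL8, a chemokine that attracts neutrophils and their avian counterparts, had 0.872, 1.37, 3.39 and 0.203 CPM in the FL and 0.142, 1.06, 0.632 and 0.414 CPM in the LL, with 1 to 25 counts per bird. The highest bird was FL replicate 3 and the lines overlapped. CCL17, a chemokine that attracts T cells in mammals, had 3 to 16 counts per bird, with 0.686 to 1.62 CPM in the FL and 0.474 to 0.967 CPM in the LL, and IL17D had 2 to 14 counts per bird. The IL17D feature overlaps 2 others, so its counts are uncertain. CD40LG, the T cell ligand that activates B cells and macrophages through CD40, ranged from 0.436 to 0.678 CPM in the FL and from 0.632 to 1.10 CPM in the LL. IFNG, the type II interferon of T and natural killer cells, had 0 to 4 counts per bird.

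The interleukin receptors held the member with the lowest p of all, and 4 of the 11 tested had a positive and 7 a negative log2 fold change. IL1RAPL2 (chr4:17149459-17318876) encodes a relative of the interleukin 1 receptor accessory protein that has been studied mainly in the mammalian nervous system. Its level was 6.76, 6.63, 18.3 and 9.73 CPM in the FL and 2.85, 6.20, 3.95 and 4.42 CPM in the LL. Every FL bird lay above every LL bird, but the nearest birds differed little, and FL replicate 3 stood high (log2 fold change 1.27, SE 0.36, p = 0.00506, edgeR adjusted p = 0.164). With DESeq2 the adjusted p was 0.0336, and the log2 fold change ranged from 0.85 to 1.47 when 1 bird was left out.

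IL13RA1 (chr4:3386961-3398494) encodes a chain of the receptor for IL13 and IL4, the cytokines of type 2 immunity. Its level was 14.6, 21.3, 15.1 and 15.5 CPM in the FL and 21.9, 22.3, 21.8 and 29.8 CPM in the LL. All LL birds were above all FL birds, with FL replicate 2 close to the lowest LL birds and LL replicate 4 apart from the others (log2 fold change -0.54, SE 0.16, p = 0.00778, edgeR adjusted p = 0.191). IL22RA1, a receptor chain for IL22 that is found mainly on epithelial cells in mammals, had 1.96 to 3.04 CPM in the FL and 2.85 to 5.67 CPM in the LL (log2 fold change -0.63, SE 0.29, p = 0.0508, edgeR adjusted p = 0.381). IL2RB, the signalling chain shared by the receptors of IL2 and IL15, had 3.12 to 4.58 CPM in the FL and 2.99 to 3.59 CPM in the LL (log2 fold change 0.31, SE 0.22, edgeR adjusted p = 0.602). The lines overlapped in both of these genes. The IL2RB feature overlaps another, so reads may be shared.

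IL1RAP, the accessory protein that interleukin 1 family receptors share, took more reads than any other interleukin receptor member (19% of the family) and was even across the birds, with 25.3 to 30.0 CPM in the FL and 27.1 to 31.2 CPM in the LL (log2 fold change -0.11, SE 0.11, edgeR adjusted p = 0.740). IL17RA, the common receptor chain for interleukin 17 cytokines, ranged from 21.8 to 31.5 CPM over the 8 birds. The members of the family with the highest coefficient of variation within lines were IL20RA, a receptor chain for IL20 family cytokines, with 5.85 to 28.0 CPM and its highest and lowest bird both in the LL, and IL28RA, the lambda interferon receptor chain named IFNLR1 in RefSeq, with 1.57 to 6.73 CPM and again both extremes in the LL. IL1R2, the decoy receptor of interleukin 1, was not tested and had 0.981, 2.29, 1.76 and 0.710 CPM in the FL and 0.569, 0.354, 0.790 and 0.690 CPM in the LL. These differences do not show in the sum of the family, since the summed level of the 20 interleukin receptors was 140.2 to 155 CPM in the FL and 147 to 159 CPM in the LL.

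Of the chemokine receptors, CXCR7 (chr7:5016154-5017650), a scavenging receptor for CXCL12 also named ACKR3, held 98.7% of the reads of the family. Its level was 162, 199.6, 198 and 187 CPM in the FL and 138, 179.8, 165 and 186 CPM in the LL, and the lines overlapped (log2 fold change 0.16, SE 0.12, edgeR adjusted p = 0.628). IL8RB, listed in RefSeq as a receptor of the CXCR1 and CXCR2 type, had 1.14 to 2.64 CPM in the FL and 1.24 to 1.52 CPM in the LL. CCR4 and CXCR5, receptors of T cell subsets and of follicular lymphocytes, had at most 7 counts in any bird.

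With TMM scaling, the TNF receptors were the only family whose summed level did not overlap between the lines, and TNFRSF21 alone held 74.7% of its reads. The sum was 110.5 to 129 CPM in the FL and 131 to 144 CPM in the LL, a difference (FL minus LL) of -16.6 CPM, given as a description. The nearest birds were FL replicate 4 at 129.3 CPM and LL replicate 4 at 130.6 CPM. Among all genes tested, 8.1% did not overlap between the lines, and a single family sum cannot be read against that share. TNFRSF21 (chr3:112761043-112790391), also known as death receptor 6, had 92.5, 81.9, 86.5 and 95.0 CPM in the FL and 98.9, 106, 111 and 97.9 CPM in the LL. All LL birds lay above all FL birds by a small margin (log2 fold change -0.22, SE 0.09, p = 0.0382, edgeR adjusted p = 0.341). TNFRSF11A, the receptor named RANK, ranged from 21.9 to 27.9 CPM over all birds, and TNFRSF9, the T cell costimulator 4-1BB, from 4.57 to 5.56 CPM in the FL and from 4.19 to 7.87 CPM in the LL. The TNF-induced gene TNFAIP2 (chr5:52655913-52663727) had 169, 248, 175 and 197 CPM in the FL and 167, 202, 159 and 175 CPM in the LL (log2 fold change 0.17, SE 0.14, edgeR adjusted p = 0.667), with FL replicate 2 the highest bird. TNFAIP3, which encodes the inhibitor of NF-kB signalling A20, ranged from 13.4 to 18.4 CPM over all birds.

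TLR21 (chr4:21101021-21108822 in the files, on another chromosome in RefSeq) is the avian receptor for unmethylated CpG DNA and was the only Toll-like receptor that the rule found. Its level was 57.0, 58.5, 49.1 and 45.7 CPM in the FL and 57.9, 40.6, 46.1 and 62.8 CPM in the LL, and the lines overlapped over nearly their whole range (log2 fold change 0.02, SE 0.15, edgeR adjusted p = 0.979). IFNGR1 (chr3:56739252-56746671), the ligand-binding chain of the interferon gamma receptor, had 16.8, 19.0, 15.7 and 13.8 CPM in the FL and 22.4, 23.2, 17.2 and 17.4 CPM in the LL. Most LL birds lay above most FL birds, with an overlap at FL replicate 2 (log2 fold change -0.30, SE 0.16, edgeR adjusted p = 0.447).

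All 4 interferon regulatory factors were tested, and each had its highest level in LL replicate 4. IRF1 (chr13:17452923-17461440), an interferon-induced activator of antiviral and antigen presentation genes, had 92.8, 57.2, 56.7 and 56.6 CPM in the FL and 83.9, 80.3, 70.5 and 130.2 CPM in the LL. FL replicate 1 alone kept the lines from separating (log2 fold change -0.47, SE 0.22, p = 0.0583, edgeR adjusted p = 0.399). IRF8, a factor of macrophage, dendritic and B cell development, was the most even, with 77.5 to 85.9 CPM in the FL and 70.0 to 95.4 CPM in the LL (log2 fold change 0.02, SE 0.11, edgeR adjusted p = 0.968). IRF2, which opposes IRF1 at shared sites, ranged from 44.1 to 62.1 CPM over all birds. The feature that the files list under the name IRF3 is IRF7 in RefSeq, the main inducer of type I interferon genes, and it had 16.9 to 24.7 CPM in the FL and 17.7 to 37.6 CPM in the LL. The CSF receptors, which pass on myeloid growth factor signals, all had a small positive log2 fold change, at 0.19 (SE 0.28, edgeR adjusted p = 0.831) for the CSF2RA feature with more reads of the pair on chromosome 1, 0.18 for the other CSF2RA feature and 0.02 for CSF2RB.

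The log2 fold changes of the 11 tested CD genes of leukocytes lay on both sides of 0, with 4 positive and 7 negative. CD3E, part of the T cell receptor complex, had 62.2, 40.7, 40.7 and 45.8 CPM in the FL and 51.8, 40.6, 31.0 and 74.2 CPM in the LL, with a log2 fold change of -0.05. CD247, the zeta chain of the same complex, ranged from 11.8 to 17.9 CPM in the FL and from 9.48 to 19.7 CPM in the LL. Both genes were highest in LL replicate 4, next highest in FL replicate 1 and lowest in LL replicate 3, and neither separated the lines.

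CD2 and CD28, which T cells also carry, lay in opposite directions at low counts. CD2 (chr1:95286223-95292488), an adhesion receptor of T and natural killer cells, had 1.09, 0.457, 0.543 and 1.01 CPM in the FL and 1.99, 1.42, 1.98 and 1.66 CPM in the LL, with 2 to 25 counts per bird. The LL birds were all above the FL birds (log2 fold change -1.10, SE 0.35, p = 0.00946, edgeR adjusted p = 0.201). CD28 (chr7:14527906-14540867), the costimulatory receptor of T cells, had 1.53, 2.06, 4.07 and 4.06 CPM in the FL and 0.997, 1.95, 0.869 and 1.8 CPM in the LL, with 7 to 40 counts per bird. FL replicates 3 and 4 were high, FL replicate 2 lay just above the highest LL bird, and FL replicate 1 fell within the LL range (log2 fold change 1.13, SE 0.42, p = 0.0217, edgeR adjusted p = 0.274). FL replicate 4 was the bird high in muscle markers, and without it and the LL birds high in liver markers the log2 fold change of CD28 was 0.86. The part of these markers' source in the difference was not tested.

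CD69 lies among sequence not placed on a chromosome, was not matched in RefSeq, and carries the name of an early activation marker of lymphocytes. It had 37.5, 12.3, 11.7 and 49.4 CPM in the FL and 37.3, 69.1, 59.6 and 58.3 CPM in the LL. FL replicates 2 and 3 were far below all other birds, while FL replicates 1 and 4 reached the lowest LL bird (log2 fold change -0.99, SE 0.42, p = 0.0385, edgeR adjusted p = 0.342). CD276, an immune checkpoint ligand also made by non-immune cells, held 31.5% of the reads of the leukocyte CD genes. It had 55.7 to 68.3 CPM in the FL and 49.5 to 71.4 CPM in the LL (log2 fold change -0.00277, SE 0.13, edgeR adjusted p = 0.997). CD7, a T cell surface protein, had 3.43 to 5.47 CPM in the FL and 2.29 to 4.61 CPM in the LL (log2 fold change 0.35, SE 0.27, edgeR adjusted p = 0.643). CD274, the checkpoint ligand PD-L1, ranged from 1.36 to 3.60 CPM in the FL and from 1.82 to 3.13 CPM in the LL. CD14, the coreceptor for lipopolysaccharide, ranged from 5.13 to 15.2 CPM over all birds, but its feature overlaps 5 others and its counts are uncertain.

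**Figure D3:**
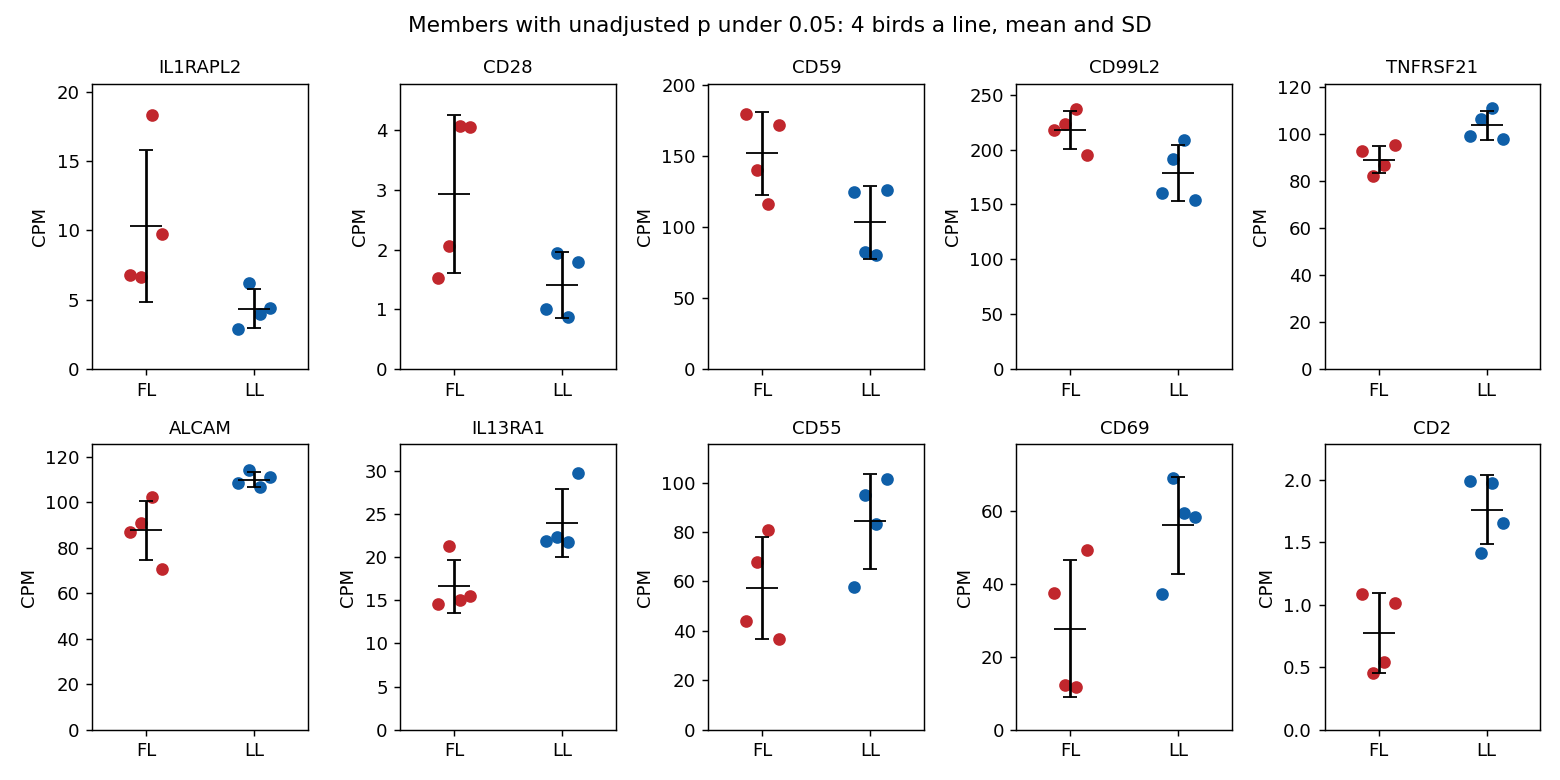
Level in CPM (vertical axis, from 0) of the 10 members with an unadjusted p under 0.05 in each of the 4 FL and 4 LL birds, with the mean as a horizontal line and the SD as a bar. IL1RAPL2, IL13RA1, CD2, ALCAM and TNFRSF21 do not overlap between the lines, and the other 5 do.

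The other CD genes, which are found on endothelium, stroma and many further cells, held 47.5% of the reads of all members, and 4 of the 8 had an unadjusted p under 0.05, where the share of all genes was 13.1% and a family of 8 is too small to be read against it. ALCAM (chr1:89845927-89964250, listed as CD166), an adhesion molecule that binds CD6 of T cells, had 86.9, 91.0, 102 and 70.9 CPM in the FL and 108, 114, 107 and 111 CPM in the LL. The LL birds lay close together and above all FL birds (log2 fold change -0.33, SE 0.11, p = 0.0161, edgeR adjusted p = 0.242). CD55 and CD59 both protect cells from complement, CD55 at the convertase and CD59 at the membrane attack complex, and their fold changes had opposite signs. CD59 (chr5:19766961-19769938) had 179, 139.95, 116 and 171 CPM in the FL and 125, 82.0, 79.98 and 126 CPM in the LL (log2 fold change 0.56, SE 0.19, p = 0.0148, edgeR adjusted p = 0.236). CD55 (chr26:2465089-2468945) had 44.0, 67.7, 80.8 and 36.7 CPM in the FL and 57.7, 94.8, 83.4 and 101 CPM in the LL (log2 fold change -0.56, SE 0.25, p = 0.0484, edgeR adjusted p = 0.377). The lines overlapped in both genes, at FL replicate 3 for CD59 and at LL replicate 1 for CD55. CD59 was lowest in LL replicates 2 and 3, the birds high in liver markers, and its log2 fold change was 0.21 without these birds and FL replicate 4, while that of CD55 was -0.32. The part of the liver and muscle markers' source in these differences was not tested. The CD55 feature overlaps another, so reads may be shared.

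CD99L2 (chr4:17825228-17841030), a relative of the leukocyte migration protein CD99, had 218, 223, 237 and 195 CPM in the FL and 160.3, 191, 209 and 154 CPM in the LL. FL replicates 1, 2 and 3 were above every LL bird and FL replicate 4 was not (log2 fold change 0.29, SE 0.12, p = 0.0374, edgeR adjusted p = 0.336). Without the 3 birds high in muscle or liver markers the log2 fold change of CD99L2 was 0.52 (edgeR adjusted p = 0.113). CD99 itself (chr1:132659466-132685501) held 48.1% of the reads of these 8 genes and had 659 to 810.4 CPM in the FL and 584 to 1036 CPM in the LL (log2 fold change -0.02, SE 0.17, edgeR adjusted p = 0.982). The LL held both its highest bird, replicate 1, and its lowest, replicate 3. CD34 and CD93, surface proteins of endothelium and progenitor cells, were both lowest in LL replicate 1 and ranged from 112 to 263 and from 75.2 to 145 CPM. The remaining 7 features match by their letters only and are no cytokine or leukocyte genes by name. They include the TNRC6 genes, which act in microRNA silencing and of which TNRC6A had 98.3 to 116 CPM in the FL and 114 to 131 CPM in the LL (log2 fold change -0.19, SE 0.09, edgeR adjusted p = 0.428), CD2AP, IRF2BP2, TNFSF5IP1 and CD041_CHICK, to which no annotation used here gives a gene name. Without them the tested members numbered 50, of which 21 had a positive and 29 a negative log2 fold change.

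The members varied more from bird to bird within a line than the genes tested did in general, which is given as a description. The median coefficient of variation within lines was 24.4% for the 57 members and 16.6% for all 11187 genes tested, at nearly the same counting error (7.16% and 7.12%), and 36 of 57 members lay above the median of all genes. Among the most variable members the counting error was 10.1% for IL20RA and 5.35% for CD69, but 19.7% for IL28RA and 30.2% for IL1RL2. LL replicate 4 was the highest of the 8 birds in 16 of 57 members (28.1%), against 11.2% of all genes, and the lowest in 1. These 16 members were IL18, CCL4, CCL19, TLR21, IRF1, IRF2, IRF7, IRF8, CD3E, CD247, TNFRSF9, TNFAIP3, IL13RA1, IL1RL2, CD55 and CD109. LL replicate 1 was the lowest bird in 13 members (22.8%), against 18% of all genes.

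**Figure D4:**
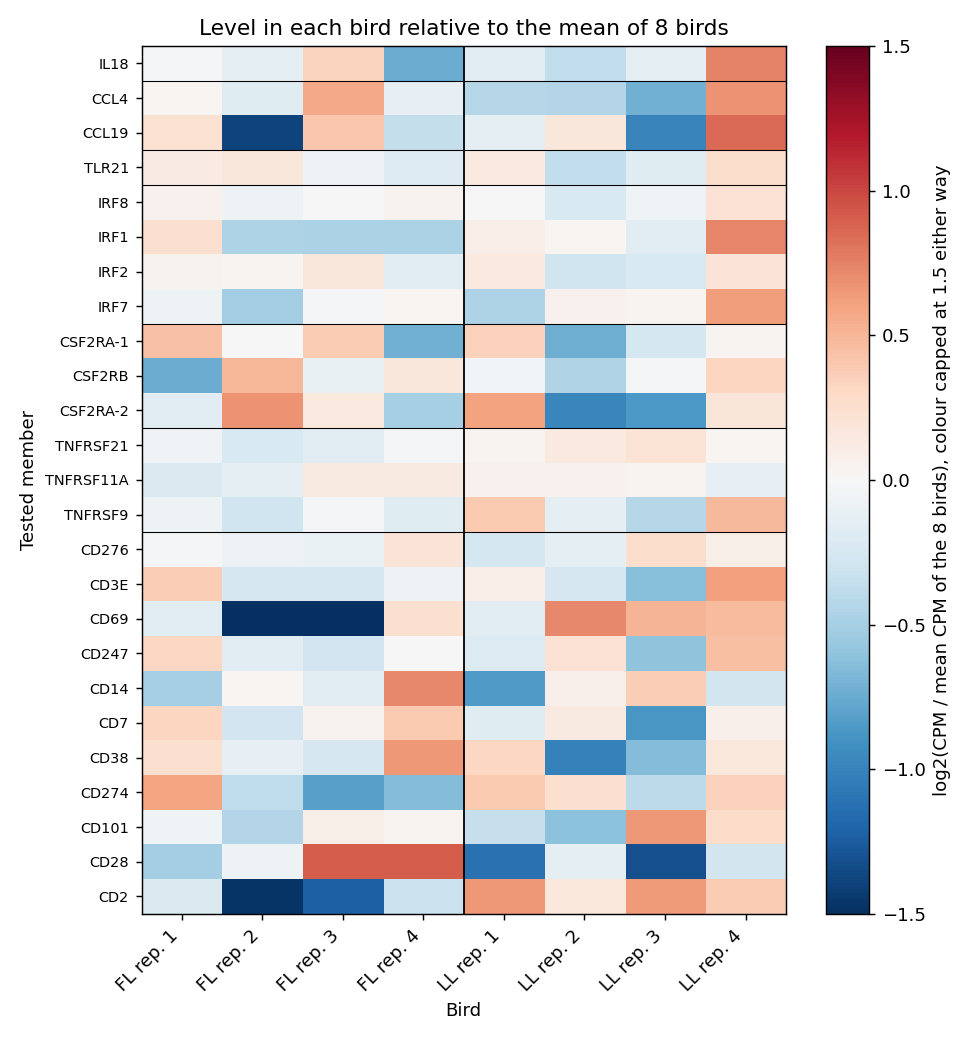
Level of the tested interleukin and chemokine ligands, TLR21, IRF, CSF and TNF receptors and CD leukocyte genes (rows) in each bird (columns). Values are log2 of the CPM over the mean of the 8 birds, with red above and blue below the mean. LL replicate 4 is red for IL18, CCL4, CCL19, the 4 IRF genes, CD3E and CD247, and LL replicates 1 to 4 are all red only for TNFRSF21 and CD2.

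Markers of leukocytes were also high in LL replicate 4, though not only there. The summed level of the pan-leukocyte markers (3 of 7 genes found, LCP1, LAPTM5 and IKZF1) was 588 CPM in LL replicate 4, 577 CPM in FL replicate 1 and 569 CPM in FL replicate 2, and ranged from 427 to 577 CPM in the FL and from 350.3 to 588 CPM in the LL. That of the T and natural killer cell markers (7 of 13 found, of which CD3E, CD247 and CD28 are members themselves) was 127 CPM in LL replicate 4 and 108 CPM in FL replicate 1, and ranged from 75.5 to 108 CPM in the FL and from 58.3 to 127 CPM in the LL. Most of this sum was CD3E and CD247, with 74.2 and 19.7 CPM in LL replicate 4 and 62.2 and 17.9 CPM in FL replicate 1. It therefore mostly repeats the levels of these members. The summed level of the B cell markers (3 of 9 names found) was 179.9 CPM in FL replicate 1 and 163 CPM in LL replicate 4, against 62.6 to 127 CPM in the others. This pattern was carried by IGJ (97.7 and 102 CPM in these birds), while BLNK was highest in FL replicate 2 and BTK ranged only from 31.8 to 42.6 CPM. FL replicate 1 was the highest of the 8 birds in 4 members only (7.02%, against 10.6% of all genes). No found marker of these 3 lists had at most 3 counts in every bird. The part of leukocyte content in the members' levels was not tested. The summed level of the macrophage and dendritic cell markers (9 of 12 found) did not set these birds apart. It was 1084 to 1217 CPM in the FL and 948 to 1104 CPM in the LL, of which CSF1R took 556 to 719 CPM. The single markers differed, with 6 positive and 3 negative log2 fold changes (FL over LL) and a median of 0.18. MARCO, CTSS, C1QA, C1QB, C1QC and FLT3 were highest among the LL birds in replicate 4, while CSF1R and MRC1 were lowest there of all birds. MARCO had 86.9 CPM in LL replicate 4 against 19.1 to 42.7 CPM in the other LL birds, with FL replicate 2 next highest. MARCO alone of these 9 markers had an unadjusted p under 0.05, with its higher mean in the LL. The share of all genes tested was 13.1%, and 9 markers are too few to be read against it. MARCO, CSF1R and CTSS were named through tables of the study, as were LCP1 of the pan-leukocyte list and CD4 of the T and natural killer cell list. These tables list genes for their level or line difference in these birds, or for a lipid metabolism annotation.

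The genes found that act between these receptors and the nucleus were few, and the count of calls among them can be read only against the background of 0.366% called and 13.1% with an unadjusted p under 0.05. A list of 55 signalling genes of the TLR, TNF, NF-kB, JAK and STAT pathways gave 29 that were found and tested, of which 0 were called by edgeR and 0 had an unadjusted p under 0.05 (15 positive and 14 negative values, median log2 fold change 7.21e-05). DESeq2 also called 0 of them. A list of 25 interferon target names gave 12 genes that were found and tested. The list holds DHX58 and IFIH1 also under their other names, LGP2 and MDA5. Of the 12 genes, 0 were called by edgeR or by DESeq2 and 0 had an unadjusted p under 0.05 (3 positive and 9 negative values, median log2 fold change -0.21). Of these found genes, 8 signalling genes and 1 target were named through the same tables of the study.

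The interferon targets shared their highest birds, a pattern that was noticed in the data and is given as a description. FL replicate 1 was the highest FL bird in 9 of the 12 targets and LL replicate 4 the highest LL bird in 11, and both held in 9 (75%), against 6.75% of all genes tested. The exceptions were IFIH1, TMEM173 and B2M. IFIT5, an antiviral RNA-binding protein, had 50.3, 20.8, 13.3 and 9.53 CPM in the FL and 22.2, 20.4, 18.9 and 69.6 CPM in the LL. PARP14, an interferon-induced ADP-ribosyltransferase, had 187, 118, 155 and 109 CPM in the FL and 131, 152, 136 and 289.7 CPM in the LL. FL replicate 1 and LL replicate 4 were the highest bird of their line in both of these genes, as they were in IRF1 and CD3E.

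Receptor and ligand partners that the rule did not reach were looked up by a list of 21 names, of which 9 were found. Of the found partners, IL15RA was listed under a gene number and the others under protein accessions. IL1R1, the signalling receptor of interleukin 1, had 6.54, 8.00, 7.32 and 6.49 CPM in the FL and 13.1, 10.5, 9.80 and 12.2 CPM in the LL, with no overlap, while its partner IL1RAP was even. Its ligand IL1B, a main inflammatory cytokine, had 1.74, 2.29, 5.29 and 1.22 CPM in the FL and 0.854, 1.42, 1.26 and 0.552 CPM in the LL, highest in FL replicate 3 as were IL8 and IL1RAPL2. TNFSF10, the ligand named TRAIL, had 50.4, 50.5, 56.0 and 68.4 CPM in the FL and 70.0, 71.6, 83.3 and 80.5 CPM in the LL, with no overlap. CSF1R, the growth factor receptor of macrophages, had 623, 719, 643 and 659.9 CPM in the FL and 619, 588, 564 and 556 CPM in the LL, with all FL birds above all LL birds by a small margin. In the remaining partners the lines overlapped, with CXCL12 from 27.7 to 54.0 CPM, IL6ST from 251 to 347 CPM, IL15RA from 3.70 to 6.63 CPM, CD40 from 13.5 to 20.2 CPM and IFNGR2 from 234 to 316 CPM over the 8 birds. Of the 9 partners, 3 did not overlap between the lines, where the share of all genes was 8.1%. All but IL15RA were named through tables of the study. These list genes for their level or line difference in these same birds, or for a lipid metabolism annotation. The 9 are therefore no independent sample and their levels are a description.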

How the data were processed

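Total RNA of abdominal fat from 4 FL and 4 LL cockerels at 7 wk was sequenced in 3 runs per bird (24 runs). The authors mapped the paired-end reads in CLC Genomics Workbench 5.1, after base calling with CASAVA 1.8.2 per the labels, to build 2.1 of the chicken genome with Ensembl release 64 and 200 nt of flanking sequence, allowing at most 2 mismatches and leaving out reads that map to several places. The deposited counts are the exon reads that mapped uniquely to each gene in each run, not normalized. The deposited counts give no strand, so overlapping genes (14 members) are uncertain. Features were taken as overlapping when they met with 200 nt added to both ends of each, so some may meet only in this flanking sequence. The scaled values per run (24 columns), the means (4 columns) and the authors' fold change and p-value columns (3) were not used.

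The 3 runs of a bird were summed, and groups follow the labels. CPM used TMM factors. Lines were compared with filterByExpr, glmQLFit and glmQLFTest of edgeR 4.0.16 (R 4.3.3). P-values were adjusted by the Benjamini-Hochberg method over 11187 genes, and DE genes were those with a fold change of 1.2 or more and an adjusted p no higher than 0.05. The script was tested on simulated data. P-values set the difference between the lines against the spread between birds within lines. The members and lists were chosen with earlier results of these data known. Genes with a fold change and p in the text were any called member, the 8 tested members with the smallest p in each direction and the member with the most reads of each family, and others are given by level. Names came from the files, UniProt entry names, the study's tables and RefSeq (83 of 89 members matched, used for names only). The alternatives were DESeq2 1.42.0, total counts without TMM, the low-count filter dropped or set to 10 counts in each bird, runs 2 and 3 or run 1 only, the 24 runs as replicates, the replicate number as a block, robust=TRUE, no fold threshold and each bird left out. A fit without the 3 birds high in muscle or liver markers was added after the data were seen. Figures used Python 3.11.15 and matplotlib 3.10.9.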

Additional observations from a re-analysis of the deposited data

Results flagged for a closer look

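In 10 of 146 checks of a line of 4 birds, over the 57 tested members and the summed levels, 1 bird stood apart from the other 3 by more than the 95% critical value of Dixon's test, where chance flags about 1 in 20. LL replicate 4 stood apart in 4 of them, with 8.84 CPM of IL18 against 4.07 to 4.82 CPM in the other LL birds, 29.8 CPM of IL13RA1 against 21.8 to 22.3 CPM, 16.2 CPM of CCL4 against 6.16 to 7.55 CPM, and 10.5 CPM for the sum of the interleukin ligands, which is mostly IL18, against 5.14 to 5.53 CPM. IL13RA1 had a bird apart in the FL as well, replicate 2 with 21.3 CPM against 14.6 to 15.5 CPM. IRF1 had 92.8 CPM in FL replicate 1 against 56.6 to 57.2 CPM in the other FL birds.

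FL replicate 4, the bird high in muscle markers, had 36.6 CPM of IL11RA, a receptor chain for interleukin 11, against 22.8 to 24.7 CPM in the other FL birds, and 10.2 CPM of IL31RA, a receptor chain for interleukin 31, against 18 to 18.6 CPM. The part of the muscle markers' source in these values was not tested. IL28RA had 5.83 CPM in FL replicate 3 against 2.62 to 2.84 CPM. TNRC6B, which matches by its letters only, had 59.1 CPM in LL replicate 3 against 40.2 to 42.6 CPM in the other LL birds.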

How the results depend on the processing

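The count of called members stayed at 0 under all alternatives but a pair of them: DESeq2 called 1 (IL1RAPL2, adjusted p = 0.0336), and edgeR with the 24 runs as replicates, which are not independent birds, called 8 (18.6% of members against 14% of all genes). Members with an unadjusted p under 0.05 numbered 10, 5 with run 1 only (9.8% against 8.3% of all genes), and 7 to 11 with a bird left out (12.3% to 19.3% against 10.5% to 14.6%). Members with no overlap numbered 5, 8 with total counts (14% against 8.07% of all genes) and 2 with run 1 only (3.51% against 5.49%). The median log2 fold change was -0.0897 with total counts, which moved the median of all genes to -0.06, -0.0972 without the 3 birds high in muscle or liver markers, and from -0.0669 to 0.0294 with a bird left out. With total counts the summed levels differed (FL minus LL) by -195 CPM over all members (-66.2 CPM with TMM), -137 CPM without those that match by letters only (-28.2 CPM with TMM) and -7.97 CPM in the interleukin receptors (-2.04 CPM with TMM). The TMM values are smaller than the SD within lines, and without the letters-only members the TMM value was 29.8 CPM without LL replicate 4 and 4.23 CPM without LL replicate 1.

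Of the named genes, the sign turned in those near 0 or resting on few birds. CD276 had log2 fold changes of 0.00256 with DESeq2, 0.00415 with no filter, 0.0314 with run 1 only, 0.0038 without the 3 birds high in muscle or liver markers and -0.0781 to 0.0975 with a bird left out. CD99 had 0.00299 with run 1 only and -0.13 to 0.18 with a bird left out. IL18 had 0.0247 with runs 2 and 3 only and -0.36 to 0.12 with a bird left out. TNFSF4 had -0.0151 with runs 2 and 3 only and -0.0298 to 0.72 with a bird left out. IRF8 had -0.0401 with total counts, -0.0198 with run 1 only, -0.12 without the 3 birds and -0.0430 to 0.11 with a bird left out. TLR21 had -0.0365, -0.0132, -0.14 and -0.0774 to 0.12 in the same order. CCL4 had -0.0400 without the 3 birds. Without them CD99 had -0.21, CD7 0.12, IL2RB 0.18, IL1RAP -0.00565 and the CSF2RA feature with more reads 0.0984. The cause of these turns was not tested.

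The replicate numbers were not taken as pairs in the main fit, and same-numbered FL and LL birds deviated with correlations of 0.22, -0.07, -0.11 and -0.06. These correlations cannot show whether the birds were paired by design. With the replicate block, 8 genes of all and 0 members were called, the log2 fold change of CD276 was 0.00608 and that of CD99 was 0.0132. Of the 4 FL birds, 1 correlated best with the LL bird of its own number. Depth and the low-count filter limit the members. In the main fit no difference was tested for the 18 members with at most 3 counts in every bird. The same holds for the 14 members that had more counts in some bird but did not pass the filter.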
